A study of Mus musculus with 10 samples.

Results

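The genes described here are those of the ubiquitin and proteasome system that carry the family names Ube, Usp, Fbx, Rnf, Cul, Psm, Herc, Nedd4 and Otu: ubiquitin-carrying enzymes, ubiquitin ligases, deubiquitinases and proteasome subunits. They were chosen by symbol alone, from probe sets with a single gene symbol in the array's annotation, and the rule leaves out Usp18. It found 159 of 7542 measured genes, on 243 of 10581 probe sets with 1 symbol. Where a gene had several probe sets, the one with the highest mean over the 10 arrays stood for it, so 84 further probe sets of 61 genes served only as a comparison. The families were 15 Ube2 genes, 10 HECT ligases and E4 factors (Ube3, Ube4, Herc and Nedd4l), 53 RING finger genes (Rnf), 4 cullins, 39 F-box genes, 32 deubiquitinases of the USP and OTU families, 3 subunits of the 20S proteasome core, 2 genes of the 19S cap and Psmf1, a proteasome regulator. Symbols do not always give the product: Ube4bos3 is an opposite-strand transcript, Ube2d-ps a pseudogene and Usp6nl a protein of membrane traffic. Without these 3, the other 156 members gave the same counts of called genes.

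Expression was measured in livers of male mice on the B array of an Affymetrix mouse set, in 5 groups. In the transgenic study, TgSREBP-1a mice carried a transgene for human SREBP-1a in its nuclear, active form and TgSREBP-2 mice one for human SREBP-2. They and their wild type controls were 12 to 16 weeks old, and for 2 weeks their diet had been high in protein and low in carbohydrate, which raises transgene expression. In the Scap study, Scap-/- mice and their wild type controls were 10 to 12 weeks old and ate Teklad chow. Both groups of that study had received 4 injections of polyinosinic-polycytidylic acid, which switches on the Cre recombinase that deletes Scap and also induces interferon, and livers were taken 14 days later. The controls of the transgenic study are called diet-fed wild type below, and those of the Scap study injected wild type, where both could be meant. Every group is 1 pool (20 µg of RNA from 5 livers) measured in duplicate on 2 arrays. The tests therefore compare pools against hybridisation error, and the spread between mice was not measured. The promoter that drives the transgenes and the cells that express the Cre are not given in the sources used here.

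Ubiquitin is a small protein that is attached to other proteins in a relay. An E2 enzyme carries it, and a ligase (E3) chooses the target: HECT ligases pass ubiquitin on through themselves, while RING ligases bring the loaded E2 to the target. Cullins are scaffolds of large RING ligases, and F-box proteins are their exchangeable target receptors. Deubiquitinases remove ubiquitin, and the proteasome, a barrel (20S) with a cap (19S), destroys the marked proteins. In the liver this system sets the lifetime of the sterol machinery itself: nuclear SREBPs, the INSIG proteins, HMG-CoA reductase and the LDL receptor are all known targets. SREBPs switch on the genes of lipid synthesis, and they are activated only after SCAP has carried them out of the endoplasmic reticulum.

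Array medians lay between 5.625 and 5.662 on the log2 scale. The targeted gene, Scap, read 9.24 and 8.89 in injected wild type and 7.94 and 7.75 in Scap-/-, where it fell by 1.22 ± 0.18 (limma standard error; adjusted p = 0.0175). In each of the 5 groups, at least 1 array correlated more closely over the members with an array of another group than with its own duplicate; over all probe sets this held in the Scap study and in TgSREBP-2. Of 9 listed hepatocyte markers 3 were measured, and their mean level was 10.72 and 10.97 on the arrays of diet-fed wild type but 9.01 and 9.18 in TgSREBP-1a. There C8a and C8b, 2 of the 3, fell by 2.60 and 2.22. The remaining hepatocyte marker differed by -0.42 without a call, so most of the fall in the mean came from C8a and C8b. Cd163, the 1 measured macrophage marker, rose in TgSREBP-1a by 0.91. The mean of 5 endothelial markers, of 10 listed, was 6.78 and 6.84 in diet-fed wild type, 7.07 and 7.14 in TgSREBP-1a, where all 5 differences were above 0 and Lyve1 rose by 0.64, and 6.59 and 6.68 in TgSREBP-2, where all 5 were below 0 and none was called. Tfrc, the 1 measured of 5 listed erythroid markers, rose in TgSREBP-2, from 4.83 and 4.77 in wild type to 6.14 and 6.46 (limma, adjusted p = 0.0163). The mean of 3 pancreatic acinar markers was 8.84 and 9.17 in the same wild type pool, 6.07 and 6.11 in TgSREBP-1a, but 9.75 and 10.10 in TgSREBP-2, and in the Scap study it was 8.02 and 8.23 in wild type and 6.32 and 6.43 in Scap-/-. In whole liver, fewer cells of a type and less RNA per cell cannot be told apart.

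The 159 ubiquitin and proteasome genes measured here moved little in any group, as did most of the other measured genes. A gene was called at a Benjamini-Hochberg adjusted p under 0.05 over all 12411 probe sets together with a difference of at least 1.5-fold. By that rule Psmb5 was the 1 of 159 members called in TgSREBP-1a against wild type, where 2.18% of all probe sets were called (1.36% higher and 0.814% lower). In TgSREBP-2 against wild type 0 of 159 were called by limma, against 0.5% of all probe sets, with 2 higher and 4 lower at an unadjusted p under 0.05 (3.42% and 4.5% of all probe sets). In Scap-/- against wild type 0 of 159 were called, against 0.274% of all probe sets (0.0161% higher), with 3 higher and 4 lower at an unadjusted p under 0.05 (3.34% and 4.39% of all probe sets). The other 158 members were called in none of the 5 comparisons made. In TgSREBP-1a, 13 members were higher and 4 lower at an unadjusted p under 0.05, against 6.01% and 4.29% of all probe sets.

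**Figure D1:**
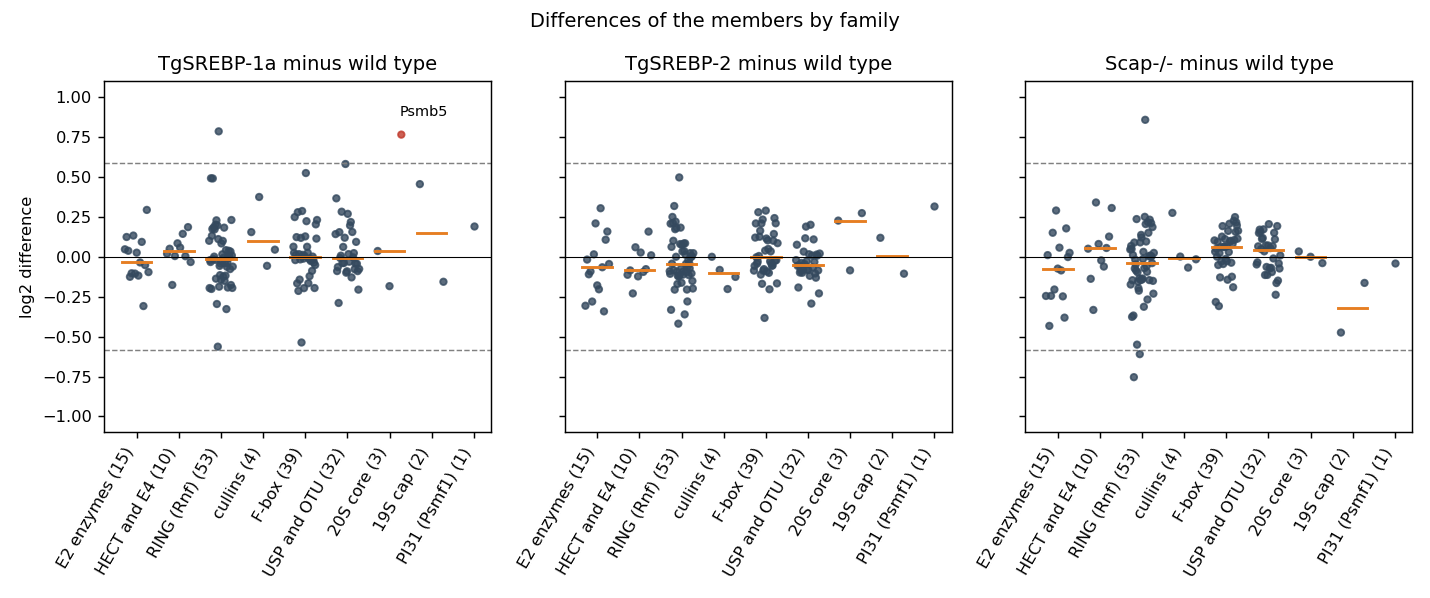
Log2 differences (y axis) of the 159 members by family (x axis, number of genes in brackets) for each line minus its own wild type. Each point is 1 gene, orange bars are family medians, dashed lines mark 1.5-fold, and the red point is Psmb5, the 1 called gene; nearly all other points lie between the dashed lines.

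In size, the differences of most members were like those of other genes. The median absolute log2 difference of the members was 0.100 in TgSREBP-1a, 0.099 in TgSREBP-2 and 0.109 in Scap-/-. Among the other 7383 genes it was 0.091, 0.097 and 0.102. With the sign kept, the median difference of the members was 0.00, -0.04 and 0.00, beside -0.02, -0.02 and 0.02 over all probe sets. The members ranged from -0.56 to 0.79 in TgSREBP-1a, from -0.42 to 0.50 in TgSREBP-2 and from -0.75 to 0.86 in Scap-/-. In TgSREBP-1a the 99th percentile of the absolute log2 difference was 0.66 among the members and 1.24 among the other 7383 genes. In TgSREBP-2 these values were 0.40 and 0.66, and in Scap-/- 0.67 and 0.70. The plot of cumulative sizes shows members and other genes on nearly the same curve, with the far right end of the TgSREBP-1a curve reached only by other genes.

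**Figure D2:**
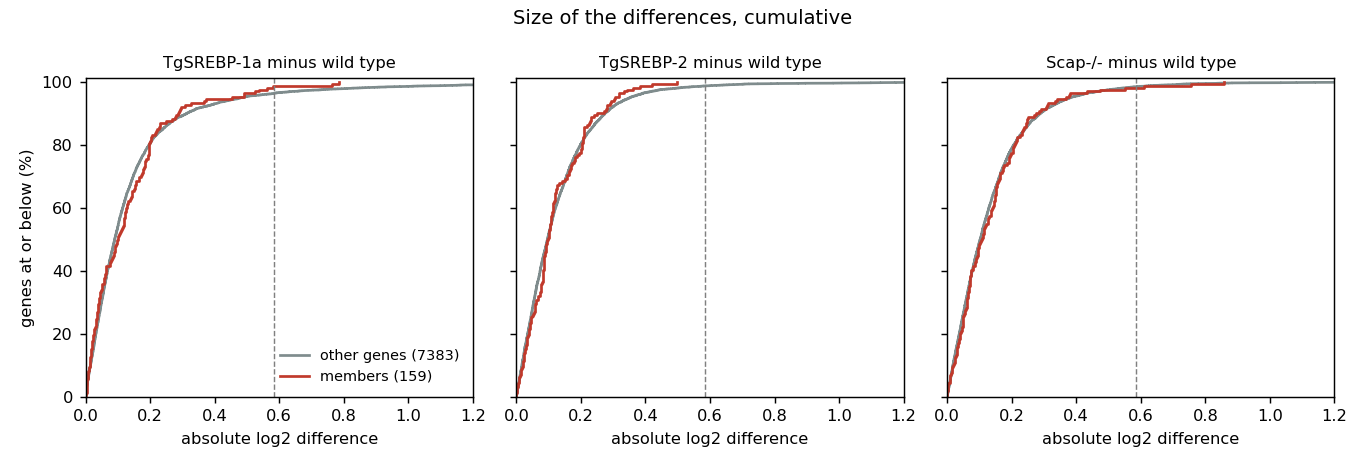
Cumulative share of genes (y axis, percent) at or below a given absolute log2 difference (x axis) for the 159 members (red) and the other 7383 genes (grey) in each line minus its wild type; the dashed line marks 1.5-fold. The member curve ends at 0.79, 0.50 and 0.86 in the 3 panels, and the x axis stops at 1.2, short of the largest differences of other genes.

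A missed threshold does not show that a gene held still, so the 95% intervals were examined. They rest on duplicate hybridisations of 1 pool per group, so they hold no spread between mice and do not bound the effect of a genotype. The interval of the difference lay wholly within 1.5-fold in either direction for 141 of 159 members in TgSREBP-1a (88.7%, against 86.3% of all genes). It did so for 144 members in TgSREBP-2 (90.6%, against 87.9%) and for 139 in Scap-/- (87.4%, against 86.5%). For 127 members it did so in all 3 comparisons with wild type. Psmb5, Psmc6, Rnf125, Rnf139, Rnf144b, Rnf149 and Rnf2 were the 7 members whose interval reached 2-fold in at least 1 of them.

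The proteasome held the 1 called gene. Psmb5 encodes the catalytic subunit of the 20S core that has the chymotrypsin-like activity, the subunit that the drug bortezomib blocks. Its log2 value was 8.54 and 8.28 in diet-fed wild type, 9.26 and 9.09 in TgSREBP-1a and, with the second line, 8.60 and 8.77 in TgSREBP-2. In the Scap study it was 8.98 and 8.78 in wild type and 8.98 and 8.70 in Scap-/-. Both TgSREBP-1a arrays stood above all 8 others, and both wild type arrays of the same study stood below all 8 others. Psmb5 rose in TgSREBP-1a by 0.76 ± 0.14, or 1.70-fold (limma, adjusted p = 0.0128; 95% interval 0.46 to 1.07). Its difference was 0.27 ± 0.14 in TgSREBP-2 (adjusted p = 0.664) and -0.04 ± 0.14 in Scap-/- (adjusted p = 0.95). The call ended without the second wild type array (0.64, adjusted p = 0.152), without the first TgSREBP-1a array (0.68, adjusted p = 0.164) and without the second (0.85, adjusted p = 0.0523). Its only probe set carries the suffix _f, which the manufacturer gave to sets sharing probes with similar sequences. The markers of hepatocytes, macrophages, endothelium and pancreas named above differed between the same pools, and their part in this rise was not tested.

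The promoter of Psmb5 is shown because it is the 1 member called, from 250 bases before to 50 after the transcription start in RefSeq (GRCm38.p6, chr14:54617946-54618245, minus strand). Letters in capitals match TGACNNNGC, the core of the antioxidant response element, which is bound by NRF factors known to act on proteasome genes. The match lies from 47 to 39 bases before the start.
Psmb5: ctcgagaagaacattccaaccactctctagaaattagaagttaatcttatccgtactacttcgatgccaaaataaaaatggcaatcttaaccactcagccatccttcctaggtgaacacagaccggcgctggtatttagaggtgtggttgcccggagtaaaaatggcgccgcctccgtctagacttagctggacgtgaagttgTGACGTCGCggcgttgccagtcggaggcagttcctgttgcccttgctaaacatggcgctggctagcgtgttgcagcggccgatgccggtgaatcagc
That motif was found, on either strand, in 12.4% of all 32841 promoters of the table and in 19.6% of the 158 promoters of members. This promoter held no match to TCACNCCAC, a form of the sterol regulatory element, to CACGTG, an E-box that SREBPs can bind, to CCAAT, the NF-Y box, or to CCGGAAG, an ETS site. A match describes letters only and shows no binding.

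The other proteasome genes stayed under the threshold. Psmb1, a structural subunit of the core, read 4.19 and 4.01 in wild type and 4.15 and 4.12 in TgSREBP-1a, a difference of 0.04 ± 0.11. Its only probe set was dimmer than the median probe set, which limits what this value can show. Psmb11, the core subunit known from the thymus, gave -0.18 ± 0.10. In the cap, Psmd5, an assembly chaperone, gave -0.16 ± 0.09 in TgSREBP-1a, -0.11 ± 0.09 in TgSREBP-2 and -0.16 ± 0.09 in Scap-/-. Psmc6, an ATPase subunit of the cap, gave 0.45 ± 0.28 in TgSREBP-1a and -0.47 ± 0.28 in Scap-/-. Its duplicates lay far apart, at 6.83 and 5.91 in injected wild type and at 6.21 and 5.58 in Scap-/-. Psmf1, also called PI31, read 8.43 and 8.42 in wild type and 8.81 and 8.67 in TgSREBP-2, a difference of 0.32 ± 0.13 (limma, adjusted p = 0.57). Its 2 other probe sets gave -0.15 and 0.09. Thus 1 of the 6 proteasome genes measured here passed in TgSREBP-1a and none of them in TgSREBP-2 or Scap-/-. Of a list of 6 interferon-inducible proteasome genes, 0 had a probe set with a symbol on this array, so the immunoproteasome was not analysed here.

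Among the 15 Ube2 genes, 0 were called by limma in any of the 5 comparisons. Over all probe sets the called share was 0.274% to 2.18% by comparison, so 0 calls do not set this family or those below apart. Their family median was -0.04 in TgSREBP-1a, -0.07 in TgSREBP-2 and -0.07 in Scap-/-. At an unadjusted p under 0.05, 1 was higher in TgSREBP-1a, against 6.01% of all probe sets, and 1 lower in TgSREBP-2, against 4.5%. In Scap-/- 0 differed, against 3.34% higher and 4.39% lower. Ube2b, a partner of RAD18 in DNA damage tolerance, lay below wild type on both arrays in TgSREBP-2 and in Scap-/-. It read 6.83 and 6.67 in wild type and 6.36 and 6.52 in TgSREBP-2 (-0.31 ± 0.11, adjusted p = 0.534), while its other probe set gave -0.10 ± 0.10. In the Scap study it read 6.71 and 6.47 in wild type and 6.33 and 6.36 in Scap-/-, and there the other probe set had the opposite sign, 0.20 ± 0.10. Ube2q2 gave -0.31, -0.34 and -0.38, each ± 0.23, in TgSREBP-1a, TgSREBP-2 and Scap-/-. Its arrays overlapped between Scap-/- and wild type. Ube2v1, which pairs with Ube2n to build a signalling form of ubiquitin chain, read 7.81 and 7.79 in wild type and 8.16 and 8.03 in TgSREBP-1a (0.29 ± 0.10, adjusted p = 0.26).

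In the group of HECT ligases and E4 factors, 0 of 10 were called, against 0.274% to 2.18% of all probe sets by comparison. Their differences stayed between -0.18 and 0.19 in TgSREBP-1a and between -0.23 and 0.16 in TgSREBP-2. Both ends of the range in Scap-/- belonged to genes with separated arrays. Nedd4l, a ligase known for removing the epithelial sodium channel from the membrane, read 7.40 and 7.65 in wild type and 7.71 and 8.02 in Scap-/-, a difference of 0.34 ± 0.12 (limma, adjusted p = 0.596). Its 2 other probe sets gave 0.12 and 0.06. Herc6, an interferon-induced ligase that in mice attaches the ubiquitin-like protein ISG15, read 5.48 and 5.12 in wild type and 4.97 and 4.97 in Scap-/-, a difference of -0.33 ± 0.12 (limma, adjusted p = 0.596). Its 2 other probe sets gave -0.13 and -0.21.

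The 53 RING finger genes, the largest family, had the widest range of differences. Of them 0 were called, against 0.274% to 2.18% of all probe sets by comparison. Their median absolute difference was 0.115 in TgSREBP-1a, 0.10 in TgSREBP-2 and 0.137 in Scap-/-, in no case the largest of the families. In TgSREBP-1a the highest difference among all members was that of Rnf149, a membrane-bound ligase, at 0.79 ± 0.32. It read 6.93 and 6.52 in wild type, 7.66 and 7.36 in TgSREBP-1a, with 7.14 and 7.30 in TgSREBP-2, with no overlap between wild type and either line. In the Scap study its duplicates were far apart, at 7.09 and 6.27 in wild type and 6.56 and 5.58 in Scap-/-, which widened the standard error for all groups. The adjusted p of Rnf149 was 0.392 with all 10 arrays and 0.0175 with only the 4 arrays of TgSREBP-1a and its wild type. Its 2 other probe sets gave -0.06 ± 0.13 and 0.02 ± 0.12. Rnf115, a ligase linked to trafficking of the EGF receptor, read 7.26 and 6.95 in wild type and 7.67 and 7.52 in TgSREBP-1a (0.49 ± 0.19, adjusted p = 0.36). Rnf144b, a ligase of the RBR type, read 6.56 and 6.37 in wild type, 5.91 and 5.90 in TgSREBP-1a, with 5.80 and 6.29 in TgSREBP-2. Its differences were -0.56 ± 0.20 and -0.42 ± 0.20, with adjusted p-values of 0.288 and 0.653 in limma.

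Losing Scap gave the lowest member value in Rnf125, a ligase of the antiviral sensor RIG-I. It read 11.45 and 11.05 in wild type and 10.97 and 10.02 in Scap-/-, so the groups did not overlap but the knockout duplicates differed by more than the groups' nearest arrays. The difference was -0.75 ± 0.28 (limma, adjusted p = 0.596). With the array number as a replicate block Rnf125 was called lower, though no label says what that number stands for. In the transgenic study Rnf125 read 11.13 and 10.78 in wild type and 11.62 and 11.28 in TgSREBP-1a (0.49 ± 0.28, adjusted p = 0.67). Rnf123, a ligase of a cell cycle inhibitor, read 8.46 and 8.25 in wild type and 8.08 and 7.90 in Scap-/- (-0.37 ± 0.11, adjusted p = 0.465), and its dimmer probe set gave 0.03 ± 0.14. Rnf186, a ligase of the endoplasmic reticulum, read 7.89 and 7.78 in wild type and 7.55 and 7.50 in Scap-/- (-0.31 ± 0.12, adjusted p = 0.614). Both Scap-/- arrays of Rnf186 lay below all 8 others.

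The highest member value in Scap-/- came from Rnf2, the ligase of the Polycomb complex that marks histone H2A, and it was picked out here after its values were seen. It read 7.05 and 8.57 in wild type and 8.14 and 9.19 in Scap-/-, a difference of 0.86 ± 0.48 with overlapping arrays (limma, adjusted p = 0.69). The second array was higher than the first in every one of the 5 groups, by up to 1.51. Rnf20 and Rnf40, partners in the ligase that marks histone H2B, had separated arrays in Scap-/-, where Rnf40 read 8.30 and 8.34 against 8.09 and 8.13 in wild type (0.21 ± 0.09, adjusted p = 0.64).

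The 4 cullins measured, Cul1, Cul3, Cul4b and Cul5, gave 0 calls, against 0.274% to 2.18% of all probe sets by comparison. Cul3, the scaffold that works with BTB-domain receptors such as KEAP1, read 5.92 and 5.53 in wild type, 6.14 and 6.06 in TgSREBP-1a, with 5.48 and 5.81 in TgSREBP-2. Its difference in TgSREBP-1a was 0.37 ± 0.17 (limma, adjusted p = 0.484), and its 3 dimmer probe sets lay between -0.08 and 0.08 there. In TgSREBP-2, however, a dimmer probe set of Cul3 gave -0.63 ± 0.17 (adjusted p = 0.287) where the representing one gave -0.08, so the probe sets of this gene disagree. Cul1, the scaffold of the F-box ligases, read 9.41 and 9.61 in wild type and 9.71 and 9.87 in Scap-/- (0.27 ± 0.14, adjusted p = 0.663).

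Of 39 F-box genes, 0 were called, against 0.274% to 2.18% of all probe sets by comparison. In TgSREBP-1a 2 of them had an adjusted p under 0.05 (limma) but missed the fold, and 263 of all 7542 genes had such a p. Fbxo36, an F-box gene of little known function, read 5.15 and 5.13 in wild type and 5.68 and 5.64 in TgSREBP-1a. It read 5.25 and 5.26 in TgSREBP-2, 5.35 and 5.36 in injected wild type, and 5.31 and 5.34 in Scap-/-. Duplicates differed by at most 0.04, and the nearest of the 8 other arrays lay 0.29 below TgSREBP-1a. Both diet-fed wild type arrays of Fbxo36 in turn lay below all 8 others. The difference from wild type was 0.52 ± 0.08, or 1.44-fold (limma, adjusted p = 0.00709). Fbxo21, a target receptor of a cullin ligase, went the other way, from 8.87 and 8.73 in wild type to 8.35 and 8.18 in TgSREBP-1a, a difference of -0.54 ± 0.10 (limma, adjusted p = 0.0135). TgSREBP-2 lay between them at 8.62 and 8.64. Injected wild type, however, read 8.23 and 8.31, as low as TgSREBP-1a, and Scap-/- read 8.46 and 8.47. Both diet-fed wild type arrays of Fbxo21 thus lay above all 8 others.

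**Figure D3:**
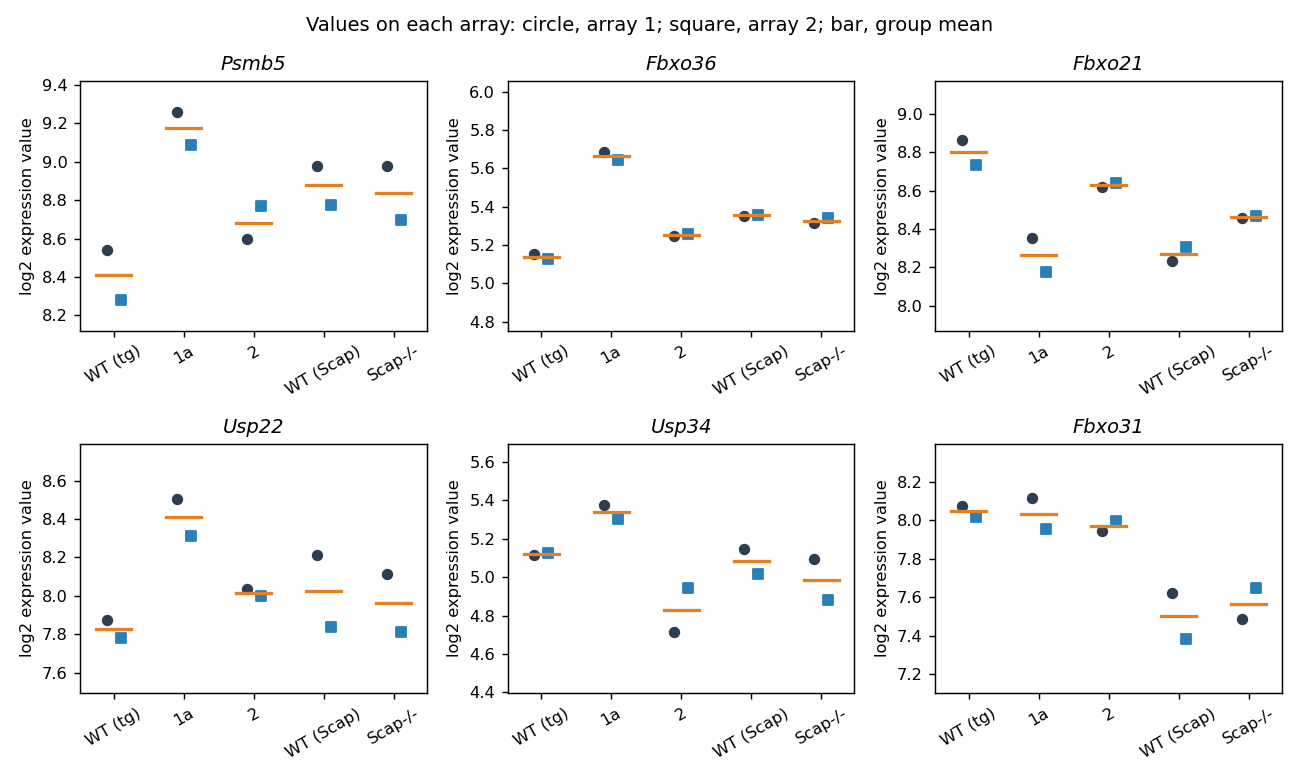
Log2 expression value (y axis, its range differs between panels) of 6 members on each array, by group (x axis: diet-fed wild type, TgSREBP-1a, TgSREBP-2, injected wild type, Scap-/-). Circles are array 1, squares array 2 and bars the mean of both; Psmb5, Fbxo36 and Usp22 are highest in TgSREBP-1a, Fbxo21 differs between the 2 wild type pools by 0.53, and Fbxo31 is higher in all 6 arrays of the transgenic study than in the 4 of the Scap study.

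The promoters of these F-box genes are shown because they are the other members with an adjusted p under 0.05 in TgSREBP-1a (RefSeq, GRCm38.p6, plus strand, at chr1:84839591-84839890 for Fbxo36 and chr5:117976520-117976819 for Fbxo21).
Fbxo36: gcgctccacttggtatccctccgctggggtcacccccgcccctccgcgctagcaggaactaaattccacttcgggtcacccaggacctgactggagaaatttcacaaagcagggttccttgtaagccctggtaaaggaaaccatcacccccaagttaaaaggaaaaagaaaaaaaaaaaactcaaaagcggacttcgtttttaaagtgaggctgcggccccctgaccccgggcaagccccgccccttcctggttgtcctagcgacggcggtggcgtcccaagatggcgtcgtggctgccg
Fbxo21: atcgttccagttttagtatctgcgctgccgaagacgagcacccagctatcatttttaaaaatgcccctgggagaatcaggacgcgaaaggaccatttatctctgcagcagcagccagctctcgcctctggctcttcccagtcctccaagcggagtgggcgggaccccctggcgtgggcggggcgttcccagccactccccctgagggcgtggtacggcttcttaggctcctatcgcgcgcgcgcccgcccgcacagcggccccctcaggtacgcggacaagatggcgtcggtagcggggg
Neither held a match to any of the 5 motifs, so all letters are in lower case.

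The remaining F-box genes gave smaller values. Fbxo32, or atrogin-1, the F-box protein known from muscle wasting, read 7.48 and 7.51 in wild type and 6.85 and 7.38 in TgSREBP-2 (-0.38 ± 0.15, adjusted p = 0.554), and its other probe set gave -0.33 ± 0.11. Without the second TgSREBP-2 array it was called, at -0.65 (limma, adjusted p = 0.0425). Fbxo34 read 8.58 and 8.57 in wild type and 8.94 and 8.79 in TgSREBP-2 (0.29 ± 0.12, adjusted p = 0.58). Fbxl4, a mitochondrial F-box protein that restrains mitophagy, gave 0.28 ± 0.19 in both transgenic lines and -0.31 ± 0.19 in Scap-/-. Fbxl5, the iron-sensing receptor of iron regulatory proteins, read 6.79 and 6.86 in wild type and 6.61 and 6.61 in TgSREBP-1a (-0.21 ± 0.10, adjusted p = 0.48).

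Of 32 deubiquitinases, 0 were called by limma, against 0.274% to 2.18% of all probe sets by comparison. At an unadjusted p under 0.05, 4 were higher and 1 lower in TgSREBP-1a, against 6.01% and 4.29% of all probe sets, and 7 were higher and 0 lower in TgSREBP-1a against TgSREBP-2, where the shares over all probe sets were 8.49% and 6.2%. Usp22, which removes ubiquitin from histones in the SAGA complex, read 7.88 and 7.78 in wild type, 8.504 and 8.31 in TgSREBP-1a, with 8.04 and 7.998 in TgSREBP-2. Both TgSREBP-1a arrays lay above all 8 others. Its difference was 0.58 ± 0.14 in TgSREBP-1a (limma, adjusted p = 0.0665), but its dimmer probe set read 5.38 and 5.69 against 5.41 and 5.68, a difference of 0.00 ± 0.17. Otud1 read 3.28 and 3.38 in wild type and 3.78 and 3.61 in TgSREBP-1a (0.37 ± 0.10, adjusted p = 0.1), above all other arrays. Its only probe set was dim, with a mean of 3.42 against a median of 5.645 over probe sets, which limits what these values can show. In Scap-/- the 32 genes stayed between -0.24 and 0.20.

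Several genes of this system act on the sterol machinery itself, and a list of 24 such genes had 10 measured. Among its 6 members 0 were called in any comparison. Fbxw7, the receptor that marks nuclear SREBPs for destruction, read 5.997 and 6.23 in wild type, 6.27 and 6.36 in TgSREBP-1a, with 5.92 and 6.26 in TgSREBP-2. In the Scap study it read 6.30 and 6.05 in wild type against 6.48 and 6.26 in Scap-/-. Its differences of 0.20, -0.02 and 0.20, each ± 0.14, had 95% intervals that include 0. Rnf139, also called TRC8, a ligase that acts on HMG-CoA reductase with Ube2g2 as its E2, read 7.59 and 6.81 in wild type and 6.95 and 6.35 in Scap-/- with overlapping arrays (-0.55 ± 0.26, adjusted p = 0.655). Ube2g2 itself gave -0.10, -0.28 and 0.15, each ± 0.14, in TgSREBP-1a, TgSREBP-2 and Scap-/-. Its other probe set gave -0.002, 0.23 and 0.29, each ± 0.17, so the sign in TgSREBP-2 turned with the probe set. Ube2j2, an E2 of protein disposal at the endoplasmic reticulum, read 6.15 and 6.26 in wild type and 6.30 and 6.68 in Scap-/- (0.29 ± 0.14, adjusted p = 0.662). Usp20, a deubiquitinase that stabilises HMG-CoA reductase, gave 0.12, 0.12 and 0.07, each ± 0.10. Its other probe sets disagreed in Scap-/-, at 0.38 ± 0.12 with separated arrays (limma, adjusted p = 0.493) and at -0.02 ± 0.10. Rnf185, another ligase of the endoplasmic reticulum, gave 0.02, -0.11 and 0.03, each ± 0.13. Its other probe set gave -0.20, 0.25 and 0.03, each ± 0.13, with opposite signs in both transgenic lines.

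The 1 gene called on that list lies outside the naming rule. Mylip, or IDOL, the ligase that sends the LDL receptor to the lysosome, read 4.53 and 4.57 in wild type, 5.43 and 5.40 in TgSREBP-1a, with 4.42 and 4.58 in TgSREBP-2. It rose by 0.87 ± 0.15 in TgSREBP-1a (limma, adjusted p = 0.011), while the difference in TgSREBP-2 was -0.05 ± 0.15. The other 3, Nploc4, Ubxn4 and Faf2, which serve the p97 extraction machine, gave 0.25, 0.44 and 0.16 in TgSREBP-1a with 0 calls. The median of the 10 genes was 0.14 in TgSREBP-1a, -0.01 in TgSREBP-2 and 0.05 in Scap-/-.

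**Figure D4:**
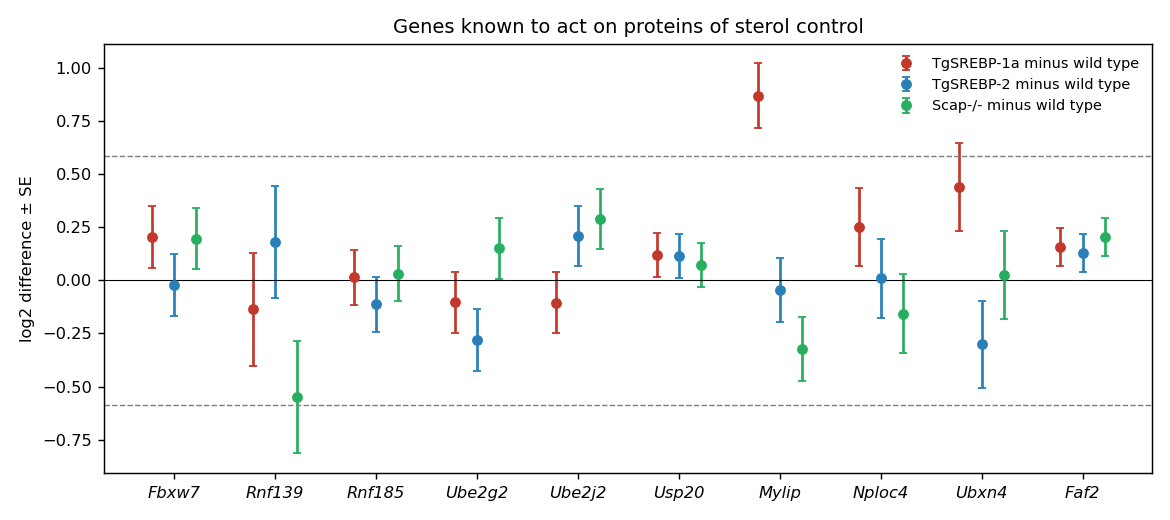
Log2 difference (y axis) with its limma standard error for the 10 measured genes that act on proteins of sterol control (x axis), in TgSREBP-1a (red), TgSREBP-2 (blue) and Scap-/- (green), each minus its wild type; dashed lines mark 1.5-fold. Mylip in TgSREBP-1a, at 0.87, is the 1 point beyond a dashed line.

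The promoters of the members were also searched for the sterol regulatory element TCACNCCAC, on both strands. Of 159 members 129 had an entry in the table, with 158 promoters, and 5 of these (3.16%) held a match, against 1.24% of all 32841. The 5 sites are shown with 10 bases on either side, 5′ to 3′ on the strand of the gene, with the match in capitals (RefSeq, GRCm38.p6). In Fbxl20 (chr11:98149759-98149787, minus strand) the match is on the strand of the gene. In Fbxw19 (chr9:109496047-109496075), Fbxw24 (chr9:109626228-109626256), Rnf166 (chr8:122476185-122476213) and Rnf217 (chr10:31609727-31609755), all on the minus strand, it is on the opposite one.
Fbxl20: tggcgcccggTCACCCCACgttccaggcg
Fbxw19: gaaaatcactGTGGAGTGAgttaaggtgt
Fbxw24: gaaaatcactGTGGAGTGAgttaaggtgt
Rnf166: cgactgcggaGTGGCGTGAggagccggcg
Rnf217: tgccaaagggGTGGGGTGAggggagggag
Fbxw19 and Fbxw24, neighbouring members of one F-box cluster, share all 29 bases and so are 1 sequence rather than independent matches. None of the 5 genes was called. Fbxl20 read 8.52 and 8.62 in wild type, 8.67 and 8.72 in TgSREBP-1a, with 8.45 and 8.61 in TgSREBP-2. Its difference in TgSREBP-1a was 0.12 ± 0.12. Rnf217, with its match from 20 to 12 bases before the start, read 8.29 and 8.19 in wild type and 7.93 and 7.89 in TgSREBP-1a, a difference of -0.33 ± 0.17 (limma, adjusted p = 0.602). Fbxw19, Fbxw24 and Rnf166 gave 0.00, -0.04 and -0.06 there. Among the other motifs, CCAAT was in 22.8% of member promoters and 37.4% of all, CCGGAAG in 20.9% and 8.86%, and CACGTG in 10.8% and 7.15%.

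The transgenic lines were also compared with each other. This comparison shares arrays with those against wild type. Of 159 members 0 were called by limma, against 1.86% of all probe sets, with 18 higher and 3 lower in TgSREBP-1a at an unadjusted p under 0.05 (8.49% and 6.2% of all probe sets). The arrays of TgSREBP-1a lay wholly above those of TgSREBP-2 for 44 members and wholly below for 30, against 25.3% and 20.7% of all probe sets. Between these lines the endothelial markers Lyve1 and Ptprb were called higher in TgSREBP-1a, by 0.82 and 1.02, and Tfrc lower, by -1.38, and their part in the member values was not tested. The member median was 0.03, and 0.01 over all probe sets. Usp34, a deubiquitinase that acts on axin in the Wnt pathway, read 5.38 and 5.30 in TgSREBP-1a, with 4.71 and 4.94 in TgSREBP-2, with wild type between them at 5.12 and 5.13. The difference between the lines was 0.51 ± 0.11 (limma, adjusted p = 0.047), short of 1.5-fold. Without the second TgSREBP-2 array it was 0.62 (adjusted p = 0.0331), past both thresholds. Rnf113a2, a RING finger gene, had probe sets that disagreed: the representing one gave 0.30 ± 0.11 (adjusted p = 0.232), and the other read 6.18 and 6.26 in TgSREBP-1a against 7.01 and 6.63 in TgSREBP-2, a called difference of -0.59 ± 0.13 (limma, adjusted p = 0.05 after rounding). Fbxo36 differed by 0.41 ± 0.08 (adjusted p = 0.0334), again under the fold. Psmb5 was higher in TgSREBP-1a by 0.49 ± 0.14 (adjusted p = 0.119). Usp12, which works with WD-repeat cofactors, read 5.84 and 5.85 in TgSREBP-1a, with 5.45 and 5.47 in TgSREBP-2 (0.38 ± 0.09, adjusted p = 0.055). On the lower side, Fbxo21 gave -0.37 ± 0.10 (adjusted p = 0.0984) and Ube2o, with arrays at 3.77 and 3.97 against 4.34 and 4.08, gave -0.34 ± 0.21. The promoter of Usp34 is shown because this was the member with the largest such difference among those with an adjusted p under 0.05 (RefSeq, GRCm38.p6, chr11:23306645-23306944, plus strand). The capitals match TGACNNNGC from 247 to 239 bases before the start.
Usp34: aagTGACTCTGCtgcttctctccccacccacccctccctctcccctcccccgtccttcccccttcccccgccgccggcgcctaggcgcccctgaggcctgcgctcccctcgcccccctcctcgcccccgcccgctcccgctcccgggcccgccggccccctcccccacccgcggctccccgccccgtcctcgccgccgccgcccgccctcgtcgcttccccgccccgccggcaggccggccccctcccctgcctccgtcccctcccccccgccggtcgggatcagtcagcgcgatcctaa

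The comparison of diet-fed with injected wild type, 2 pools that differ in feeding, age, treatment and study, gave 0 called members as well, against 0.508% of all probe sets. With limma, 3 members were higher and 8 lower in the transgenic study at an unadjusted p under 0.05 (4.05% and 5.65% of all probe sets). Fbxo31, an F-box protein that acts on cyclin D1, read 8.08 and 8.02 in diet-fed wild type and 7.62 and 7.38 in injected wild type. The same split ran through the other groups, with 8.12, 7.95, 7.94 and 7.996 on the transgenic arrays and 7.49 and 7.65 in Scap-/-. The difference between wild type pools was 0.54 ± 0.11 (limma, adjusted p = 0.0826), and 0.51 ± 0.12 on its other probe set. Fbxo21 was higher in the transgenic study by 0.53 ± 0.10 (adjusted p = 0.0476), about as much as wild type exceeded TgSREBP-1a within that study. Rnf167, a ligase of endosomes and lysosomes, gave 0.43 ± 0.19, and Ube4b, an E4 factor, 0.38 ± 0.15.

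On the other side, Herc6 was lower in diet-fed wild type, at 4.81 and 4.89 against 5.48 and 5.12 (-0.45 ± 0.12, adjusted p = 0.208). Of its dimmer probe sets, 1 was called lower, at -0.59 ± 0.09 (limma, adjusted p = 0.0234), and the other gave -0.29 ± 0.11. Members were counted on the representing probe set only. All 6 arrays of the transgenic study were below all 4 of the Scap study for Herc6, as for Herc3, Otud4 and Rnf121, while Fbxo31 was the 1 member with all 6 above. These are 2.52% and 0.629% of the members, against 2.97% and 2.77% of all probe sets. The mean of 9 measured interferon-stimulated genes was 6.998 and 7.04 in diet-fed wild type and 7.40 and 7.46 in injected wild type, with Bst2 lower by 1.30 (adjusted p = 0.0279). Its part in the Herc6 values was not tested. Psmc6 (-0.65 ± 0.28), Psmb5 (-0.47 ± 0.14) and Rnf123 (-0.42 ± 0.11) were also lower in value, without a call.

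The members were then sorted by their direction with a transgene and without Scap, comparisons that share no arrays. In TgSREBP-1a 40 members had both arrays above wild type and 33 both below, against 19% and 23.4% of all probe sets. In Scap-/- 29 were above and 17 below, against 20% and 14.4%. Fbxo36, Herc3, Rnf123, Rnf125 and Rnf144a were the 5 members higher in TgSREBP-1a and lower in Scap-/-, 12.5% of the 40 and 29.4% of the 17. They were 3.14% of the members, against 3.53% of all probe sets. Fbxl5, Fbxo21, Fbxo32, Rnf20 and Rnf40 showed the opposite pattern, again 3.14% of the members, against 4.21%. In TgSREBP-2, 28 members lay above and 39 below wild type, against 15.6% and 24.4%. Of the 28, Fbxl6, Fbxo36 and Rnf123 were the 3 that were also lower in Scap-/- (1.89% of members, against 2.27%). Of the 39, the 7 also higher in Scap-/- were Fbxo21, Fbxo32, Rnf220, Rnf222, Usp12, Usp28 and Usp31 (4.4% of members, against 4.02%). None of these genes was called in either comparison, and the difference of Fbxo36 in Scap-/- was only -0.03 ± 0.08. Other probe sets did not always keep the direction. Fbxl5 gave 0.02 ± 0.10 in Scap-/- and -0.19 on its other probe set. The other probe set of Rnf123 gave -0.14 in TgSREBP-1a, while that of Fbxo32 kept its sign in TgSREBP-1a and in Scap-/-.

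Each group was last set against all other arrays. TgSREBP-1a had 12 members with both arrays above the 8 others, 7.55% against 5.87% of all probe sets. Besides Psmb5, Fbxo36, Usp22, Usp34, Otud1, Rnf149 and Cul3, these were Fbxo4, Rnf144a, Usp37, Ube3c and Usp28. The gap to the nearest other array was largest for Fbxo36 (0.29) and Otud1 (0.19), both on probe sets dimmer than the median probe set. Another 6, among them Fbxl5 and Fbxo45, lay below the 8 others (3.77% against 4.28%). TgSREBP-2 had 4 members above (2.52% against 4.3%) and 9 members below the 8 others (5.66% against 6.31%), led by Fbxw8 with a gap of 0.12 and including Usp12 and Cul4b. Rnf113a2 was also among the 9, but its other probe set stood above all 8 others in TgSREBP-2, so its direction turns with the probe set. Scap-/- had 5 above (3.14% against 3.7%), led by Rnf40, and 2 below, Rnf186 and Rnf166 (1.26% against 3.07%). Diet-fed wild type had 2 above, Fbxo21 and Fbxo32 (1.26% against 2.13%), and 3 below, Fbxo36, Psmb5 and Fbxw9 (1.89% against 1.24%). Injected wild type had 6 above (3.77% against 3.17%) and 5 below (3.14% against 4.33%). For 9 members a pair of duplicates differed by at least 1.5-fold in some group (5.66%, against 5.88% of all probe sets), a gap as large as the fold required for a call.

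A further list of ubiquitin system genes outside the naming rule, which does not hold Mylip, gave no calls. Of 244 listed genes 121 were measured, among them ubiquitin-like modifiers, receptors of other cullin ligases and other deubiquitinases. Limma called 0 of them in each of the 5 comparisons, where 0.274% to 2.18% of all probe sets were called. At an unadjusted p under 0.05, 6 were higher and 5 lower in TgSREBP-1a, 0 and 6 in TgSREBP-2, and 0 and 8 in Scap-/-, beside all-probe-set shares of 6.01% and 4.29%, 3.42% and 4.5%, and 3.34% and 4.39%. Between the lines 15 were higher in TgSREBP-1a and 1 lower, where those shares were 8.49% and 6.2%, and 42 had arrays wholly above and 11 wholly below, against 25.3% and 20.7%. In TgSREBP-2, 85 of the 121 differences were below 0, and 39 genes lay wholly below wild type and 11 wholly above, against 24.4% and 15.6%. Their median differences were 0.01 in TgSREBP-1a, -0.06 in TgSREBP-2 and -0.03 in Scap-/-, and 0.06 between the lines. The lowest value in TgSREBP-2 was -0.64 (limma, adjusted p = 0.51), that of Hace1, a HECT ligase, and between the lines the same gene gave the highest, 0.92 (adjusted p = 0.0703). Edem1, which sorts misfolded glycoproteins for disposal, had the highest value in TgSREBP-1a, at 9.18 and 8.76 against 8.47 and 8.07 in wild type (0.70 ± 0.19, adjusted p = 0.118). Edem1 and Hace1 were picked out after the values were seen. Of 21 genes of the other main route of protein breakdown, autophagy and the lysosome, 6 were measured. Limma called 0 of these 6 in the 5 comparisons, beside the same shares of all probe sets.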

How the data were processed

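Per the submitters' processing notes, the authors made the deposited log2 expression values with RMA (background correction, quantile normalization and probe summary); its version and a genome build are not given in the sources used here. Of 12477 probe sets, 66 controls were left out. The platform annotation gave 10581 probe sets 1 symbol, 178 several and 1652 none. No column of the deposited table was unused (0).

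With limma 3.58.1 in R 4.3.3, lmFit and eBayes were fitted to all 10 arrays with 1 coefficient per group (2 arrays each), two-sided, and p-values were Benjamini-Hochberg adjusted over 12411 probe sets. Errors are limma standard errors of log2 differences (median 0.115), and intervals are 95% from the moderated fit with 10.3 degrees of freedom. With 2 arrays a group, their number limits how precise any value can be. The procedure was tested on simulated data.

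Named genes were every called member, the 5 largest rises and 5 largest falls per comparison among members whose arrays did not overlap, the sterol-linked list, the member of each family with the widest range of group means, and called genes of the other ubiquitin list. Genes from counts of 12 or fewer, Rnf2, Edem1, Hace1, marker genes and those with motif matches were added after values were seen. Members and lists were chosen with earlier results of these data known. Motifs were searched on both strands of RefSeq promoters (300 bases). Alternatives were arrays left out, 4 arrays alone, a replicate block, a filter on dim probe sets, other normalizations, probe set means, an intensity trend and no minimum fold.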

Additional observations from a re-analysis of the deposited data

How the results depend on the processing

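The count of called members stayed within 0 to 3 under every alternative run. In TgSREBP-1a against wild type, where 1 member was called, 2 were called with only the 4 arrays of the compared groups (Psmb5 and Rnf149), 3 with no minimum fold (Psmb5, Fbxo36 and Fbxo21), and 0 to 1 with an array left out; the 1 without the first TgSREBP-1a array was Fbxo21. In TgSREBP-2 against wild type the main count was 0, and 0 to 1 with an array left out (Fbxo32, without the second TgSREBP-2 array). Between the lines the main count was 0, with 2 at no minimum fold (Fbxo36 and Usp34) and 0 to 1 with an array left out (Usp34). Between the wild type pools the main count was 0, with 1 after quantile normalization and 1 with no minimum fold (Fbxo21 in both) and 0 to 1 with an array left out (Herc6, without the second wild type array of the Scap study). Array 1 minus array 2 correlated across probe sets at 0.41 between wild type and TgSREBP-1a, 0.06 between wild type and TgSREBP-2 and 0.60 in the Scap study. Between groups other than TgSREBP-2 the values were 0.34 to 0.60, also across the studies. With TgSREBP-2 they lay between -0.17 and 0.11, so not every pair passed 0.1. No label says what the array number stands for, and the main fit left it out. With that number as a replicate block, 1 member was called in Scap-/-, where the main count was 0 (Rnf125, -0.75, adjusted p = 0.0409), and the other 4 counts were as before. Rnf113a2 in TgSREBP-2 changed sign with the mean of all probe sets of a gene, from -0.33 to 0.0388; its probe sets read -0.33 and 0.41. Of the 61 members with several probe sets, all had the same sign in 28, 30 and 28 genes in TgSREBP-1a, TgSREBP-2 and Scap-/-, and 53 of the 159 members lay below the median intensity. Centring or quantile normalization moved the median of all probe sets by at most 0.02.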
